A study of Rattus norvegicus with 6 samples.

Results

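Genes of cholesterol and fatty acid synthesis were examined in cultured heart fibroblasts of newborn rats, in which miR-142-3p was blocked by an antagomiR. The set was a named list of 34 genes in 4 steps, namely the mevalonate pathway, the path from squalene to sterols, fatty acid synthesis and desaturation, and control by the sterol regulatory element-binding proteins (SREBPs). Of these, 32 were found by symbol among the 30560 genes of the deposited table, and Fdps and Nsdhl were not analysed here. Primary cardiac fibroblasts (NRCFs) came from ventricles of Sprague-Dawley pups 1 to 2 days old, were enriched by their early attachment to the dish and were kept overnight without serum. One group of 3 libraries received the miR-142-3p antagomiR, an antisense oligonucleotide that blocks the mature microRNA, and the other group of 3 received a negative control oligonucleotide (NC), both at 50 nM by lipofection. The labels describe the antagomiR group as a knockdown. Whether the libraries of a group came from separate cell isolations is not stated, and p-values here therefore reflect the spread among these 6 libraries, which may be technical. Polyadenylated RNA was sequenced, and levels are given as FPKM, fragments scaled to gene length and library total, which can be compared between genes.

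The oligonucleotide is directed at the mature microRNA, printed here from RefSeq with its seed, bases 2 to 8, in capitals (GRCr8, chr10:73055155-73055177, plus strand).
rno-miR-142-3p: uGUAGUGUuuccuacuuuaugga
Mature microRNAs carry no poly(A) tail, so its level was not measured in these libraries.

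Cells make cholesterol from acetyl-CoA through mevalonate, isoprenoid diphosphates, squalene and lanosterol, and they make fatty acids from the same acetyl-CoA through malonyl-CoA. Transcription of both pathways is driven by SREBPs, which are made as precursors in the endoplasmic reticulum. The escort protein SCAP carries the precursors to the Golgi for cleavage when sterols are scarce, and INSIG proteins hold SCAP back when sterols are plentiful. Cleavage is not visible in mRNA levels. Fibroblasts use these lipids for their membranes, and isoprenoids also anchor small GTPases.

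The libraries were first checked for depth and for markers of cell types, and here and below rose and fell refer to genes that passed limma's test on log2(FPKM + 1) at a Benjamini-Hochberg adjusted p under 0.05. Library totals recovered from the FPKM values ran from 19472409 to 24622667 fragments, and a synthesis gene held between 139 fragments, for Insig2, and 7738, for Fasn, in a library. Fibroblast markers summed to between 14836 and 15822 FPKM in the 6 libraries, 12 of 12 were in the table and none was listed at 0. Of them 6 rose and 3 fell. Single markers ran from 71.2% of the NC mean, for Thy1, to 322%, for Pdgfra, which a sum carried by the most abundant markers does not show. Leukocyte markers, 15 of 15 in the table and none listed at 0, summed to 154, 223 and 777 FPKM in NC replicates 1, 2 and 3 and to between 994 and 1107 FPKM with the antagomiR, so NC replicate 3 stood apart from the other NC libraries. Of these 15 markers 6 rose, 0 fell and 9 were not called. Single leukocyte markers ran from 94.4% of the NC mean, for Mrc1, to 1105%, for Adgre1. Ranges overlapped in 6, among them Mrc1, C1qa (101%) and Cd68 (178%), in each of which NC replicate 3 was the highest library. Smooth muscle and pericyte markers summed to between 5363 and 6125 FPKM in NC and between 3297 and 3617 FPKM with the antagomiR, with 6 of 7 tested fallen. All 6 proliferation markers rose, from sums of 41.0 to 43.6 FPKM in NC to sums of 66.4 to 71.0 FPKM. Cardiomyocyte markers summed to between 344 and 469 FPKM, and endothelial ones to at most 6.93 FPKM. Adipocyte markers, of interest for lipid genes, summed to at most 7.70 FPKM, and the defining genes Adipoq and Retn were listed at 0 in all 6 libraries. In bulk RNA, fewer cells of a type and less RNA per cell cannot be told apart. The part of these markers in the changes of the synthesis genes was not tested.

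Transcripts of the synthesis genes were lower with the antagomiR in most of the set. Of the 32 genes, 25 fell and 0 rose by limma, where 9.21% of all 12024 tested genes fell, 17.5% rose and 26.7% were called in either direction. At an unadjusted p under 0.05, 27 were lower and 2 higher, where 4715 of the 12024 tested genes were under it in either direction. Voom on recovered fragments called 26 lower and 0 higher, and over all tested genes 1168 lower and 2342 higher. The median log2 fold change, antagomiR minus NC, was -0.73 over the 32 genes and 0.06 over all tested genes. Called genes retained between 27.5% and 74.2% of their NC mean, with a median of 53.5%. The largest fall was that of Scd, a fatty acid desaturase, and the next were those of Insig1, the sterol-responsive inhibitor of SREBP activation, and the sterol reductase gene Tm7sf2. In 26 genes all 3 antagomiR libraries lay below all 3 NC libraries, against 15.4% of tested genes, and in 2 they lay above, against 29.2%. Ranges overlapped in the other 4 genes. Genes were tested at a mean of at least 1 FPKM, and no library had less than 3.88 FPKM for any of the 32, so the filter removed none of them. Among all tested genes ordered by log2 fold change, 9 of the 25 called genes were within the 100 lowest and 18 within the 250 lowest. These 25 were already selected as fallen, as were 1107 of all tested genes, and the scale understates changes of low genes.

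**Figure D1:**
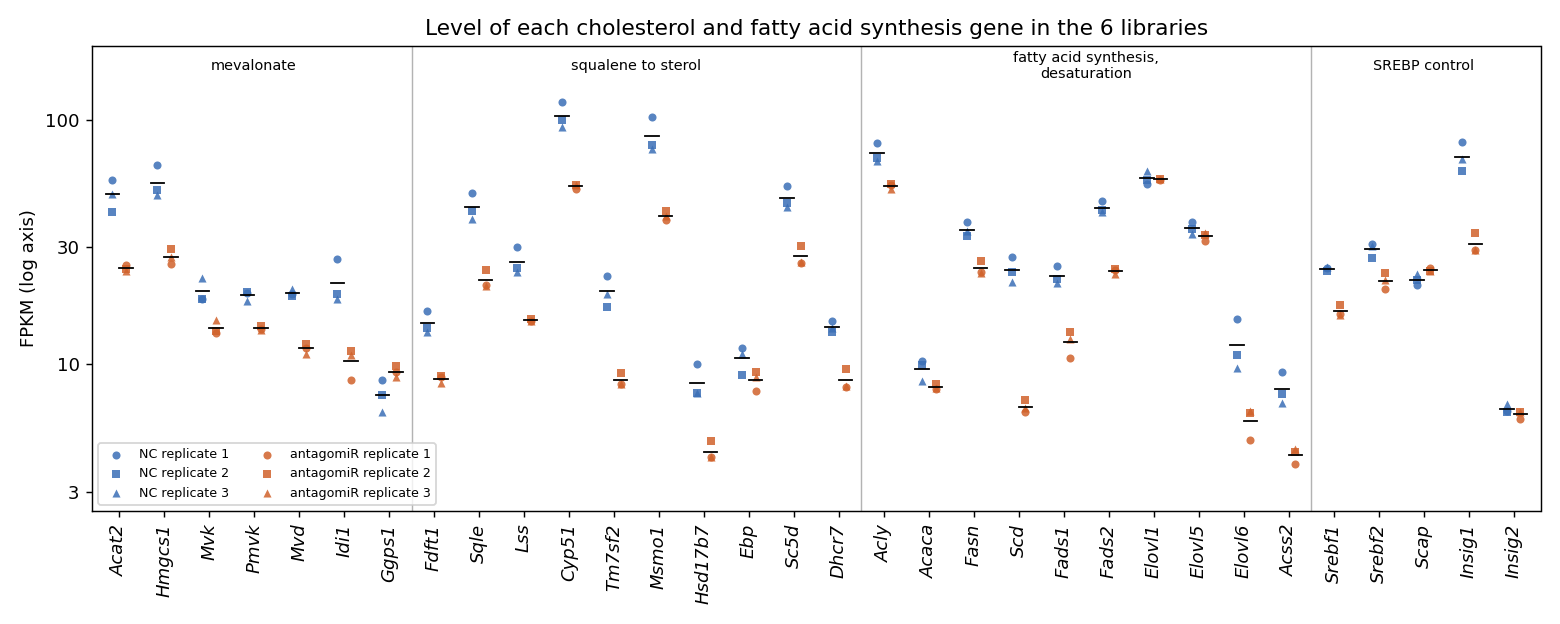
FPKM on a log axis of the 32 synthesis genes, by step, in 3 NC libraries (blue) and 3 antagomiR libraries (orange; circles, squares and triangles are replicates 1, 2 and 3), with black lines at the group means. The antagomiR libraries lie below all NC libraries in 26 genes, in Ggps1 and Scap they lie above, and Elovl1, Elovl5, Ebp and Insig2 overlap.

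By list medians, NC replicate 3 stood with the other NC libraries in the synthesis genes and near the antagomiR libraries in the leukocyte markers. The median difference from the NC mean over the 32 genes, on the log2(FPKM + 1) scale, was 0.15, -0.05 and -0.08 in NC replicates 1, 2 and 3. It was -0.76, -0.65 and -0.75 in antagomiR replicates 1, 2 and 3. For the leukocyte markers the same median was -0.70, -0.36 and 1.05 in NC and between 1.12 and 1.23 with the antagomiR. Single markers differed from this median. Adgre1 was at 11.4 FPKM in NC replicate 3 and at 55.0 to 63.3 FPKM with the antagomiR, and Mrc1 at 7.96 against 3.89 to 4.11 FPKM. The part of leukocyte markers in the fall of the synthesis genes was not tested. Without NC replicate 3, 26 of the 32 synthesis genes fell and 1 rose. NC replicate 1 was the highest NC library in 25 of the 32 genes, among them all 10 of the squalene to sterol step. Replicate 2 was the highest antagomiR library in 24 genes. The median coefficient of variation of the 32 genes was 11.3% in NC and 5.62% with the antagomiR, beside 9.66% and 5.14% over all tested genes.

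**Figure D2:**
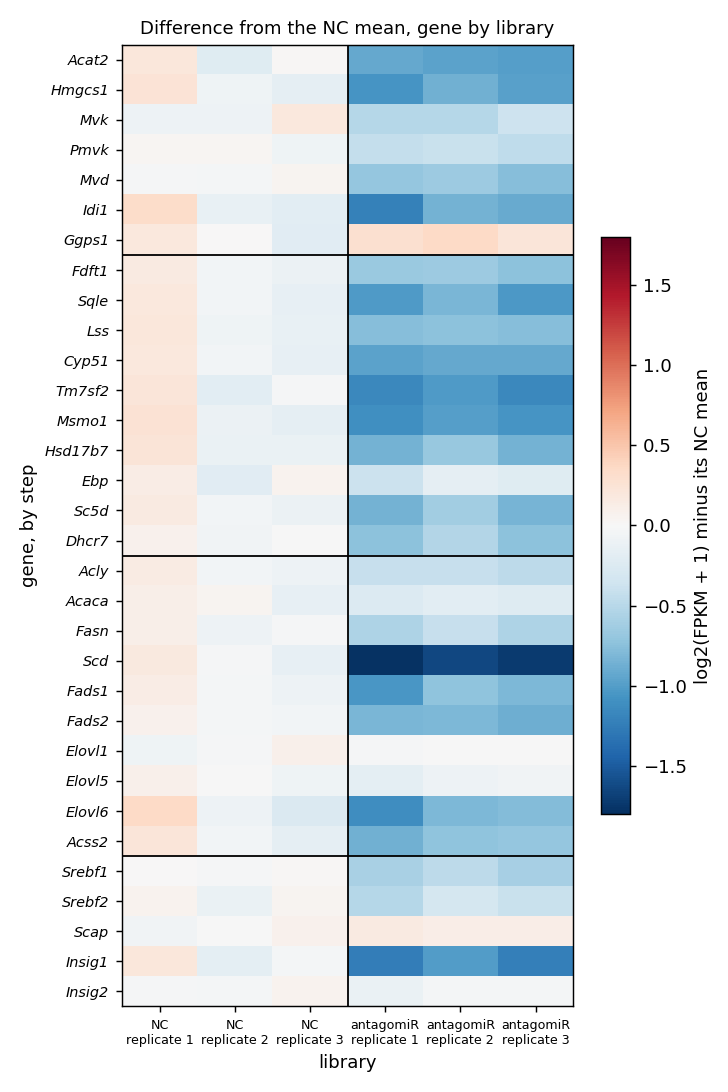
Each cell shows log2(FPKM + 1) of a synthesis gene (rows, by step) in a library (columns) minus the gene's NC mean, red above and blue below. The 3 antagomiR columns are blue in the 25 called genes, pale in Elovl1, Elovl5, Insig2, Ebp and Acaca and pale red in Ggps1 and Scap. NC replicate 1 is slightly red in most rows.

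The synthesis genes were also compared in the bases before their transcription starts. RefSeq promoters (GRCr8) were found for 26 of the 32 genes, and the 250 bases before the start were searched on both strands. The CCAAT box, which the factor NF-Y binds and which often stands near SREBP sites, was present in 19 of 26 genes (73.1%), against 36.1% of all genes with a promoter and 36.8% of tested genes. It was present in 15 of 20 genes that fell and in 4 of 6 that were not called. The GC box GGGCGG, bound by Sp1, was in 20 of 26 genes, or 76.9%, against 33.5% of all and 62.4% of tested genes. Among genes that fell it was in 18 of 20, and among those not called in 2 of 6. The median GC content of these windows was 63.2% in the synthesis genes and 60.4% in tested genes, and within the set 66.4% in genes that fell and 55.8% in those not called. The part of GC content in the GC box counts was not tested. A sterol regulatory element spelled TCACNCCAC was in 0 of 26 genes, in 1.09% of all and in 1.03% of tested genes. With shares this low, 0 of 26 cannot tell the set from other genes, and other spellings of the element were not searched. The palindromic E-box CACGTG was in 4 of 26 genes, or 15.4%, against 8.85% of tested genes, in 2 of 20 that fell and 2 of 6 not called. A loose NF-kB pattern, GGG and CC with any 5 bases between, was in 76.9% of the synthesis genes against 63.2% of tested genes, and it can overlap the GC box. This pattern was in 17 of 20 genes that fell and in 3 of 6 not called. Matches are descriptions of the sequence and show no binding.

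Windows of 4 genes that fell, 1 from each step, are printed 5′ to 3′ to show how the boxes lie, with CCAAT and its reverse complement ATTGG in capitals. Hmgcs1 (chr2:53382054-53382303, plus strand) has boxes that begin 188 and 133 bases before the start. Msmo1 (chr16:29746863-29747112, plus strand) has them at 173, 109 and 68 bases. Insig1 (chr4:8057770-8058019, minus strand) has 1, at 193 bases. Scd (chr1:253231732-253231981, minus strand), the gene with the largest fall, has none in this window and no GC box.
Hmgcs1: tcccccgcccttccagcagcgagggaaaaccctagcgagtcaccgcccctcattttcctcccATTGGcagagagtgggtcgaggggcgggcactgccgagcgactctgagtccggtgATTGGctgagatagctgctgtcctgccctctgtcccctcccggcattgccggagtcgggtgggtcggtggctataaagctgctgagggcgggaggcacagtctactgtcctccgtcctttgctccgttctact
Msmo1: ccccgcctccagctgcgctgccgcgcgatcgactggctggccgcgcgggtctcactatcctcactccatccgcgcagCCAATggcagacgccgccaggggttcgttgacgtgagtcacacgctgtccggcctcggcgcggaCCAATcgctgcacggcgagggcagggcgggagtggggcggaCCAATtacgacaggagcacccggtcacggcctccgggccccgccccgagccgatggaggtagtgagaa
Insig1: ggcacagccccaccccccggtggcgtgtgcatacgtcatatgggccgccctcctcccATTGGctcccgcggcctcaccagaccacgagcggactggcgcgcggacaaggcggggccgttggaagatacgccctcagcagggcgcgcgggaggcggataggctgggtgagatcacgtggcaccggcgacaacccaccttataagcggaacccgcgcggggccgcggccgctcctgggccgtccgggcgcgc
Scd: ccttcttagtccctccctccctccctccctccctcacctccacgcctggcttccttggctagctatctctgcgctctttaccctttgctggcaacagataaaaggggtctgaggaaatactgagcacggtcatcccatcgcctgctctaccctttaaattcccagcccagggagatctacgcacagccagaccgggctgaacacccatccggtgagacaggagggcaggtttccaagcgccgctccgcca

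In the mevalonate step 6 of 7 genes fell and none rose, with a median log2 fold change of -0.71. Acat2, which joins acetyl-CoA units, was at 56.5, 42.0 and 49.5 FPKM in NC, always given in the order of replicates 1, 2 and 3, and at 25.3, 24.5 and 24.1 FPKM with the antagomiR. Its log2 fold change was -0.96 ± 0.10 (SE, limma adjusted p = 0.000782). Hmgcs1, the HMG-CoA synthase gene (ENSRNOG00000016552, mRatBN7.2 chromosome 2 from 51649497 to 51667100), was at 65.1, 51.7 and 48.9 FPKM in NC and at 25.7, 29.6 and 27.3 FPKM with the antagomiR. Every antagomiR library of these genes was below the lowest NC library, and both kept close to 50% of their NC mean, at 49.9% and 49.8%. Idi1, which interconverts the isoprenoid building units, was at 26.9, 19.3 and 18.4 FPKM in NC and at 8.57, 11.3 and 10.9 FPKM with the antagomiR. Its NC mean of 21.5 ± 4.66 FPKM (SD, n = 3) includes a first library above the other 2, and its log2 fold change of -0.99 ran from -1.09 to -0.82 over all alternatives. The gene overlaps the entry of Wdr37, whose means were 4.39 FPKM in NC and 4.22 FPKM in the antagomiR group.

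The kinases of the step had smaller log2 fold changes. Mvk, mevalonate kinase, was at 18.4, 18.4 and 22.6 FPKM in NC and at 13.4, 13.6 and 15.1 FPKM with the antagomiR, with a log2 fold change of -0.46 ± 0.09 (SE, limma adjusted p = 0.0104). Pmvk, which adds the next phosphate, went from 19.2 ± 0.857 to 14.0 ± 0.267 FPKM, and Mvd, the decarboxylase that follows, from 19.5 ± 0.632 to 11.6 ± 0.546 FPKM (SD, n = 3). Their log2 fold changes were -0.43 and -0.71. The 95% interval of Mvk ran from -0.68 to -0.25 and that of Pmvk from -0.56 to -0.30, and differences between genes were not tested. Ggps1 makes geranylgeranyl diphosphate, a side branch used to anchor proteins in membranes, and it did not follow the step. It was at 8.61, 7.46 and 6.34 FPKM in NC and at 9.24, 9.81 and 8.82 FPKM with the antagomiR, above every NC library. Its log2 fold change of 0.29, with a 95% interval from 0.04 to 0.54, did not pass adjustment (limma adjusted p = 0.0842). Leaving out NC replicate 1 gave a called rise of 0.38 (limma adjusted p = 0.0275). The ratio of Idi1 to Ggps1 within a library, which does not depend on the library total, was 3.12, 2.58 and 2.90 in NC and 0.927, 1.16 and 1.23 with the antagomiR.

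From squalene to sterols 9 of 10 genes fell and none rose, with the lowest median of the 4 steps, -0.78. Cyp51, the lanosterol demethylase (ENSRNOG00000007234, chromosome 4 from 30036865 to 30055410), had the highest NC mean of all 32 genes. It was at 118, 99.7 and 92.9 FPKM in NC and at 52.1, 53.9 and 54.0 FPKM with the antagomiR, a log2 fold change of -0.94 ± 0.09 (SE, limma adjusted p = 0.000462). Msmo1, the sterol methyl oxidase and second in NC level, was at 102, 78.7 and 75.6 FPKM in NC and at 39.0, 42.2 and 40.2 FPKM with the antagomiR. In both genes every antagomiR library was below the lowest NC library, and replicate 1 was the highest of NC. Tm7sf2, a sterol reductase, had the largest fall of the step, at 23.0, 17.1 and 19.4 FPKM in NC and at 8.27, 9.18 and 8.28 FPKM with the antagomiR. Its log2 fold change was -1.11 ± 0.11 (SE, limma adjusted p = 0.000504).

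The enzymes that open the sterol branch all fell. Fdft1, squalene synthase, went from 14.7 ± 1.58 to 8.71 ± 0.319 FPKM, and Sqle, the squalene epoxidase that follows it, from 43.9 ± 5.61 to 22.0 ± 1.84 FPKM (SD, n = 3). Lss, which closes the rings to lanosterol, went from 26.2 ± 3.49 to 15.1 ± 0.227 FPKM. The log2 fold changes were -0.69 for Fdft1, -0.96 for Sqle and -0.75 for Lss, with overlapping 95% intervals. Later in the path Hsd17b7, a keto reductase, kept 52.2% of its NC mean, Sc5d, a sterol desaturase, 57.8%, and Dhcr7, the reductase that forms cholesterol, 60.3%. Their log2 fold changes were -0.80, -0.77 and -0.67. Ebp, the sterol isomerase on the X chromosome, was at 11.6, 8.99 and 11.0 FPKM in NC and at 7.75, 9.26 and 8.83 FPKM with the antagomiR. The second antagomiR library was above the lowest NC library, and the log2 fold change of -0.26, with a 95% interval from -0.51 to -0.0086, was not called (limma adjusted p = 0.117). It was called after quantile normalization, at -0.38 (limma adjusted p = 0.0289), and without NC replicate 2, at -0.36 (limma adjusted p = 0.0469).

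**Figure D3:**
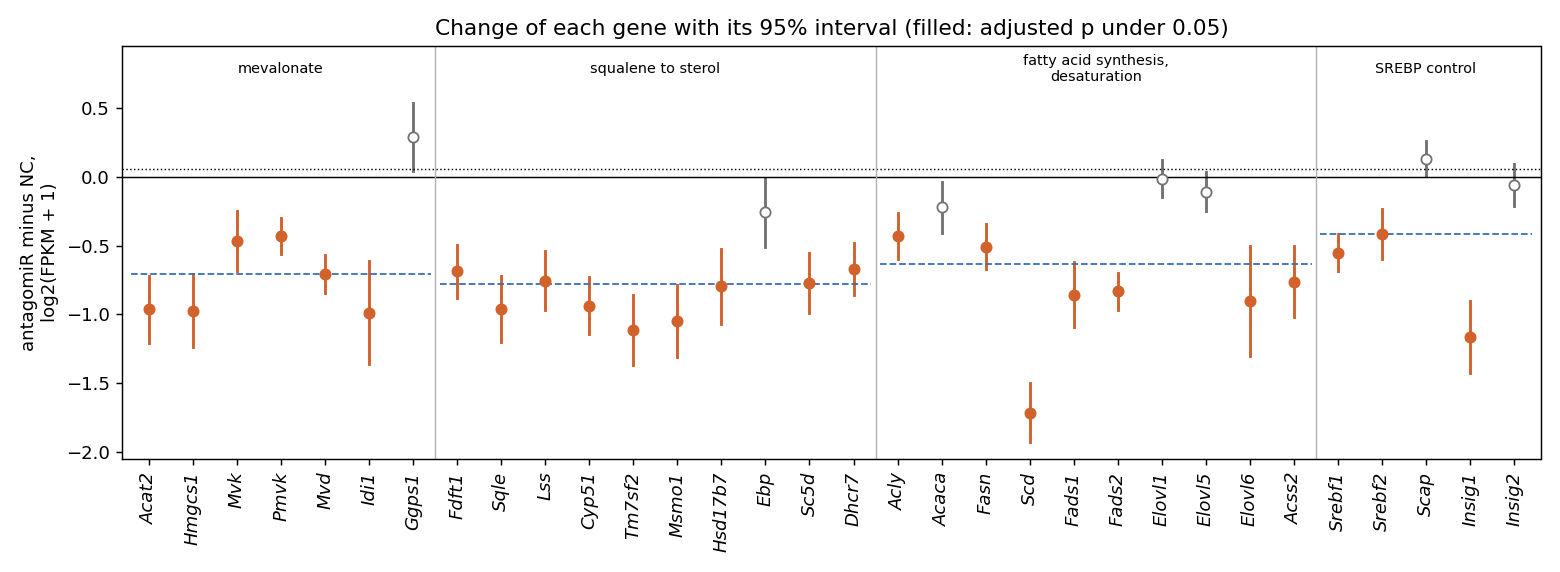
Log2 fold change, antagomiR minus NC on log2(FPKM + 1), of the 32 genes with unadjusted 95% intervals. Filled points passed the adjusted test, dashed lines are step medians (-0.71, -0.78, -0.63 and -0.41), and the dotted line is the median of all tested genes, 0.06.

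Fatty acid synthesis and desaturation was the most uneven step by its range of log2 fold changes, from -1.71 to -0.01, with 7 of 10 genes fallen, none risen and a median of -0.63. Scd, which places the first double bond in saturated fatty acids (ENSRNOG00000013552, chromosome 1 from 243269747 to 243282562), was at 27.4, 23.7 and 21.7 FPKM in NC and at 6.35, 7.09 and 6.61 FPKM with the antagomiR. The libraries of each group lay close together and the antagomiR mean was 27.5% of the NC mean. The log2 fold change of -1.71 ± 0.09 (SE, limma adjusted p = 5.16e-05) was number 4 from the lowest of all tested genes, and it ran from -1.85 to -1.63 over all alternatives. Its neighbour Scd2, a related desaturase separated from Scd by Scd4 with gaps of 21.6 and 54.6 kb, was more abundant and fell from 285 ± 24.0 to 135 ± 10.5 FPKM (SD, n = 3), a log2 fold change of -1.08. How reads shared by related copies were counted is not given in the sources used here, so each value is uncertain to that extent. Within a library the ratio of Scd to Scd2 was between 0.0808 and 0.0875 in NC and between 0.0487 and 0.0510 with the antagomiR.

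The desaturases of polyunsaturated fatty acids fell side by side. Fads1 was at 25.1, 22.3 and 21.4 FPKM in NC and at 10.6, 13.5 and 12.7 FPKM with the antagomiR, a log2 fold change of -0.86 ± 0.10 (SE, limma adjusted p = 0.00116). Fads2 was at 46.2, 42.6 and 42.0 FPKM in NC and at 24.3, 24.6 and 23.3 FPKM with the antagomiR, a log2 fold change of -0.83. These genes lie on chromosome 1, with 79.0 kb between their entries, and the ratio of Fads1 to Fads2 overlapped between groups, at 0.526 ± 0.0169 in NC and 0.510 ± 0.0639 with the antagomiR (SD, n = 3). The entry of Fads2 overlaps that of the ferritin gene Fth1, which was at 710 FPKM in NC and at 1185 FPKM with the antagomiR, the opposite direction. How strand was treated in counting is not given in the sources used here, so reads from overlapping entries cannot be told apart. An overlapping entry was listed for 10 of the 32 genes.

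The elongases divided. Elovl6, which lengthens saturated chains made by fatty acid synthase, was at 15.3, 10.9 and 9.61 FPKM in NC and at 4.87, 6.28 and 6.40 FPKM with the antagomiR, a log2 fold change of -0.90 ± 0.17 (SE, limma adjusted p = 0.00841). Elovl5, an elongase of polyunsaturated chains, was at 38.3, 35.7 and 34.1 FPKM in NC and at 31.8, 33.8 and 34.4 FPKM with the antagomiR. Elovl1, for very long saturated chains, was at 54.6, 56.5 and 61.6 FPKM in NC and at 56.7, 57.0 and 57.0 FPKM with the antagomiR. For Elovl5 and Elovl1 the groups overlapped. The 95% interval was from -0.25 to 0.04 for Elovl5 (limma adjusted p = 0.242) and from -0.15 to 0.12 for Elovl1 (limma adjusted p = 0.881). In order of level among the 32 genes Elovl1 was number 5 in NC and number 1 with the antagomiR.

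Of the 4 genes that supply acetyl-CoA and build the chain 3 fell. Fasn, fatty acid synthase, was at 37.9, 33.2 and 35.0 FPKM in NC and at 23.8, 26.3 and 23.6 FPKM with the antagomiR, a log2 fold change of -0.51 ± 0.07 (SE, limma adjusted p = 0.00233). Acly, which releases acetyl-CoA from citrate, went from 72.7 ± 6.76 to 53.5 ± 1.12 FPKM, and Acss2, which makes it from acetate, from 7.92 ± 1.22 to 4.24 ± 0.315 FPKM (SD, n = 3). Acly kept 73.6% of its NC mean and Acss2 53.5%. Acaca, the acetyl-CoA carboxylase that commits carbon to fatty acids, was at 10.3, 9.91 and 8.52 FPKM in NC and at 7.91, 8.25 and 7.96 FPKM with the antagomiR. All 3 antagomiR libraries were below NC, by a small margin, and the log2 fold change of -0.22, with a 95% interval from -0.41 to -0.04, was not called (limma adjusted p = 0.0785). It was called in 4 alternatives, after median-ratio scaling (-0.28, limma adjusted p = 0.0365), after quantile normalization (-0.35, limma adjusted p = 0.0159), by voom on recovered fragments (-0.25, limma adjusted p = 0.0451) and without NC replicate 3 (-0.30, limma adjusted p = 0.00573). Within a library the ratio of Scd to Fasn was 0.722, 0.713 and 0.621 in NC and 0.267, 0.270 and 0.279 with the antagomiR.

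Of the 5 SREBP control genes 3 fell and none rose. Insig1 (ENSRNOG00000006859, chromosome 4 from 7315495 to 7323952), whose transcription SREBPs are known to drive, was at 81.2, 61.8 and 68.7 FPKM in NC and at 29.1, 34.3 and 29.2 FPKM with the antagomiR. Its log2 fold change was -1.16 ± 0.11 (SE, limma adjusted p = 0.000494). Its relative Insig2 was at 6.41, 6.33 and 6.88 FPKM in NC and at 5.94, 6.38 and 6.36 FPKM with the antagomiR. The groups of Insig2 overlapped, and its 95% interval ran from -0.22 to 0.09 (limma adjusted p = 0.542). Within a library Insig1 was 12.7, 9.76 and 9.99 times as high as Insig2 in NC and 4.90, 5.38 and 4.59 times as high with the antagomiR.

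The factors themselves were lower as well. Srebf1, whose products favour fatty acid genes, was at 24.6, 24.0 and 24.8 FPKM in NC and at 16.0, 17.5 and 15.8 FPKM with the antagomiR, a log2 fold change of -0.55 ± 0.06 (SE, limma adjusted p = 0.000703). Srebf2, which favours cholesterol genes, was at 30.9, 27.1 and 30.5 FPKM in NC and at 20.3, 23.5 and 22.0 FPKM with the antagomiR, a log2 fold change of -0.41 ± 0.08 (SE, limma adjusted p = 0.00787). Both groups were apart for each gene, and isoforms of Srebf1 were not resolved in gene-level values. Scap, the escort, was at 21.1, 22.0 and 23.3 FPKM in NC and at 24.8, 24.0 and 24.1 FPKM with the antagomiR. Its libraries lay just above those of NC, with a log2 fold change of 0.13 and a 95% interval from 0.0031 to 0.26 that did not pass adjustment (limma adjusted p = 0.12). It was called up at 0.17 when NC replicate 3 was left out (limma adjusted p = 0.0263).

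Other lipid genes are set beside the synthesis genes from 8 lists with 106 tested members, of which 19 rose and 15 fell. The 19 risen are close to the 17.5% of all tested genes that rose, and 9.21% of all tested genes fell, the shares against which the list counts below are to be read. The count of risen genes was 34 without NC replicate 3, between 11 and 15 without any other library, and 12 after quantile normalization. Fallen genes were 9 to 13 without another library and 20 without NC replicate 3. Among genes of cholesterol uptake and transport 3 of 15 fell and 2 rose. Tmem97 fell by 0.38 on the log2 scale and Vldlr by 0.28, and Gramd1b rose by 0.42. Lrpap1, chosen after its values were seen, rose by 0.18. Among further genes of fatty acid elongation and activation 8 of 17 fell and none rose. The 4 with the smallest p were Me1 (malic enzyme, -0.81), Hacd1 (-0.74), Scd2 (-1.08) and Fads3 (-0.39), and Acsl3, chosen after its values were seen, fell by 0.55 on the log2 scale.

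The other 6 lists differed in their counts of risen and fallen genes, given here list by list. Of 14 genes of SREBP processing and sterol sensing Rnf145 rose (0.23) and Syvn1 fell (-0.24), and of 12 genes of isoprenoid branches limma called none, at an adjusted or unadjusted p under 0.05, and voom called 0. The sum of the leukocyte markers was also higher with the antagomiR, though only 6 of 15 rose, as given above. The part of these markers in the following lists was not tested. In the list of oxysterol formation and sterol esters 4 of 7 rose and none fell. Ch25h, which makes 25-hydroxycholesterol, was at 0.702, 1.22 and 2.12 FPKM in NC and at 26.1, 27.4 and 28.2 FPKM with the antagomiR, the oxysterol hydroxylase gene Cyp7b1 rose from 0.886 to 5.34 FPKM, and Cyp27a1 and Soat1 rose by 0.46 and 0.35 on the log2 scale. Of 10 genes linked to the oxysterol receptor LXR and to efflux 5 rose and 2 fell, with Abcg1 (1.18), Nr1h3 (0.91), Mylip (0.90) and Abca1 (0.80) among the risen. Chosen after their values were seen, Nr1h2 rose (0.27), Lpl fell (-0.22) and Apoe fell (-1.66), from 124, 158 and 455 FPKM in NC to 74.4, 57.8 and 64.2 FPKM. Without NC replicate 3, its highest library, the log2 fold change of Apoe was -1.09. In fatty acid oxidation 5 of 16 rose, among them Ucp2 (1.16), Cpt1a (0.70), Slc25a20 (0.41) and Etfdh (0.27), and Hadha (0.24), the latter chosen after its values were seen. Of 15 genes of triglyceride synthesis and lipid droplets Plin4 (0.42) and Lipe (0.43) rose and Mgll fell (-0.59). Among these calls Rnf145, Syvn1, Vldlr, Soat1, Plin4, Lipe, Etfdh, Lrpap1, Nr1h2, Lpl, Apoe and Hadha were lost in at least 3 alternatives each.

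**Figure D4:**
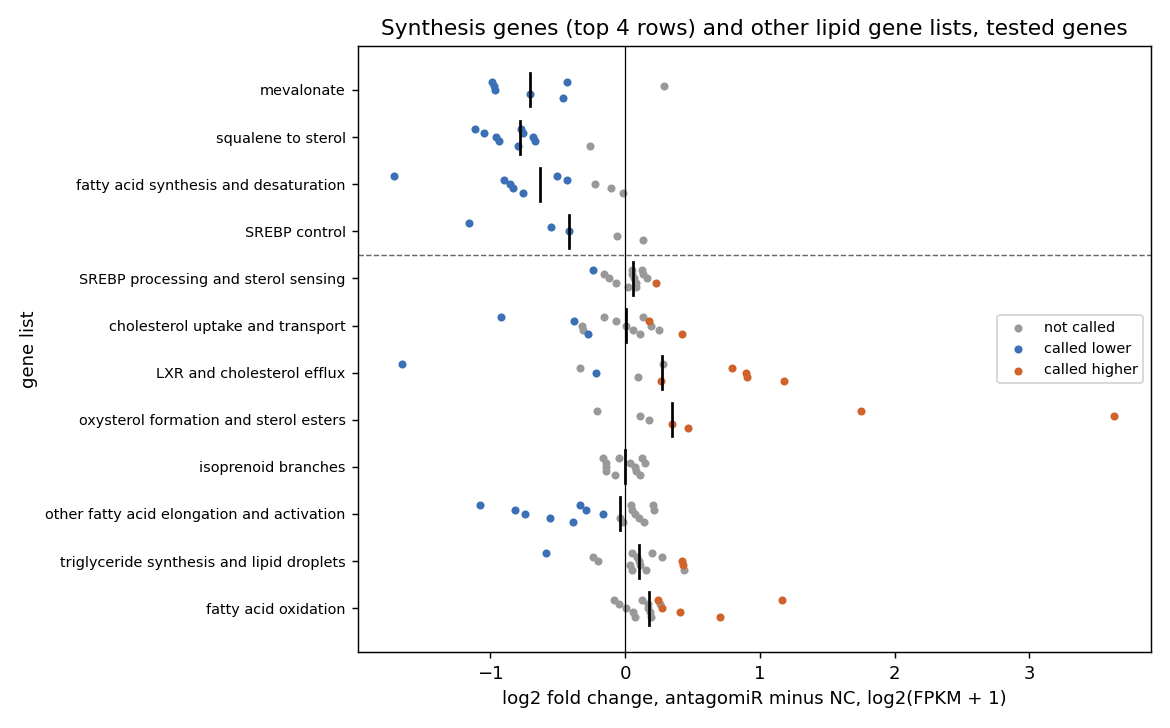
Log2 fold change of each tested gene on the log2(FPKM + 1) scale, with the 4 synthesis steps in the top rows and 8 other lipid gene lists below, and black bars at the medians. Synthesis medians lie between -0.78 and -0.41, the other medians between -0.04 and 0.35, and Ch25h is the point at 3.63.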

How the data were processed

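Polyadenylated RNA of 3 NC and 3 antagomiR libraries was sequenced as paired-end reads, per the labels' protocols. Per the submitters' processing notes, the tools were HISAT2, HTSeq, cutadapt, FastQC and edgeR, with no versions, on build mRatBN7.2. No strand setting is given in the sources used here. The authors deposited FPKM, which scale fragments by gene length and depth, for 30560 genes, and every sample column was assigned.

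Whole fragments were recovered from the FPKM by finding, for each gene, the length at which its 6 values became whole numbers (tolerance 0.01), after genes shorter than 400 bp had given the library totals. This worked for 20134 of 20134 genes above 0. For a gene of 1 kb, 3 fragments equal 0.122 to 0.154 FPKM, for counting error only. Groups were compared on log2(FPKM + 1) with limma 3.58.1 (lmFit, eBayes with a trend, two-sided, R 4.3.3) in the 12024 genes that averaged 1 FPKM or more. Benjamini-Hochberg adjustment was over all of them, with a threshold of 0.05. The fit was also run on simulated counts with the same dispersion for every gene and no deviating library. That run therefore gives no error rate for these data. The log2(FPKM + 1) scale understates changes of low genes. Members and lists were chosen with earlier results of these data known. All members are described; from each other lipid list up to 4 called genes with the smallest p are named, except 1 that is not reported here. Ratios between genes were chosen after their values were seen. Alternatives were other pseudocounts (0.1, 0.01), filters (none, 0.1 and 5 FPKM), a replicate block, quantile normalization, median-ratio scaling, no trend, robust variances, voom on recovered fragments and leaving out each library.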

Additional observations from a re-analysis of the deposited data

How the results depend on the processing

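All 25 synthesis genes that fell were called down in each of the 17 alternatives, with adjusted p (limma) of at most 0.0476, for Mvk; the count of fallen genes ran from 25 to 27 and the median log2 fold change from -0.82 to -0.65. Over 544 pairs of a synthesis gene and an alternative 536 kept their call, 8 gained one and 0 lost it. Leaving out 1 library gave 0 to 1 risen synthesis genes (0 to 1 in the mevalonate step, Ggps1 without NC replicate 1, and 0 to 1 in SREBP control, Scap without NC replicate 3). Over all genes 2109 rose and 1107 fell, and without 1 library 1198 to 3200 rose and 668 to 1677 fell, the highest counts without NC replicate 3. In the other lipid lists 11 to 34 rose and 9 to 20 fell without 1 library. Quantile normalization gave 1869 fallen genes in all and 12 risen genes in the other lipid lists, and shifted the median of all genes by -0.11. Of all called genes 65.6% were risen, against 51.4% with median-ratio scaling and 43.1% with quantile normalization. For these changes the cause was not tested. Of 419 pairs of an alternative and 1 of the 25 other lipid genes chosen by rule, 37 lost the call, and of 102 pairs with the 6 named after their values were seen, 35 did. With the replicate block, 25 synthesis genes fell and 2380 genes were called in all; deviations of libraries with equal numbers correlated at -0.16, -0.06 and -0.04, and unequal numbers at -0.06 to 0.13, so the numbers were not taken as pairs. Depth limited low genes most. Among the synthesis genes Insig2 held 139 to 175 fragments in a library, and Hsd17b7 held 152, 196 and 156 in antagomiR replicates 1, 2 and 3.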
